A study of Mus musculus with 4 samples.

Results

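A set of 9 genes of megakaryocytes and platelets was examined for cytosine methylation and hydroxymethylation in Hdac6-knockout against wild-type blood stem and progenitor cells. They are Vwf, Itga2b, Itgb3, Pf4, Gp1ba, Gp9, Gp5, Gp6 and Thpo. The members were chosen by name, with earlier results of these data known. A listed cytosine was assigned to one of them if it lay inside the annotated gene or within 2 kb of either end. The table of 5-methylcytosine (5mC) lists 53206 positions, of which 18 belonged to these genes, and that of 5-hydroxymethylcytosine (5hmC) lists 71864, of which 23 did. The 9 genes stand among 34614 protein-coding and long non-coding genes to which sites were assigned.

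The cells were LSK cells, the bone marrow fraction without lineage markers, high in Sca-1 and positive for c-Kit. One group of mice carried the HDAC6 KO genotype and the other was WT. Each genotype contributed 1 whole-genome bisulfite library and 1 oxidative bisulfite library, 4 in all, so every group holds 1 library. The knockout allele, the sex, the age and the strain of the mice, and the number of mice behind a library, are not stated in the sources used here. The tables hold no expression values, so the sorted cell type was not checked against its markers.

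Platelets are shed by megakaryocytes, which arise from stem and progenitor cells under the hormone thrombopoietin. Platelets stick to a damaged vessel when the GPIb-IX-V complex binds von Willebrand factor and glycoprotein VI binds collagen, and they clump when the integrin of alpha-IIb and beta-3 binds fibrinogen. Vwf and Itga2b (CD41) are also known as markers of the stem cells that are biased towards the platelet lineage. 5mC is the usual mark of CpG cytosines, and TET enzymes oxidise it to 5hmC. Standard bisulfite sequencing reads both marks as methylated, whereas oxidation beforehand leaves 5mC alone to be read as such.

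A level is the percentage of cytosines at a position that carried the mark. Differences are given in percentage points as knockout minus wild type. A position is in a table when the authors' p was under 0.01 and the levels differed by at least 10 points. Of the cytosines the authors tested, 0.316% were listed for 5mC, 0.127% higher and 0.188% lower in the knockout. For 5hmC 0.443% were listed, 0.285% higher and 0.158% lower. Read depth per position is unknown, so no error or interval can be attached to a level, and no difference has a replicate check. Hdac6 itself had 0% 5mC in the knockout and 100% in wild type at chromosome X position 7940288, but the deleted part of the gene is not stated, so this does not check the genotype. Each level is an average over the cells of a library, so a change in all cells and a changed mixture of cells cannot be told apart.

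Over the 9 genes, 5mC was lower in the knockout at 11 of 18 listed sites and 5hmC was higher at 15 of 23. The 7 higher 5mC sites make 38.9%, against 40.3% of all listed 5mC sites. The 15 higher 5hmC sites make 65.2%, against 64.4% of all listed 5hmC sites. Both shares lie near those of the whole tables. Of the sites assigned to all genes, 42.9% for 5mC and 61.5% for 5hmC were higher. The median difference was -31.66 points for 5mC, beside -23.26 points over the whole table, and 25 points for 5hmC, beside 22.22 points. In the authors' deposited table the q-value was 1 at all 18 5mC sites of these genes, whereas 0.175% of all listed 5mC sites had a q under 0.05. For 5hmC it was 1 at 19 of 23 sites and at least 0.762 at the others in the authors' deposited table, where 1.08% of all listed 5hmC sites had a q under 0.05.

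**Figure D1:**
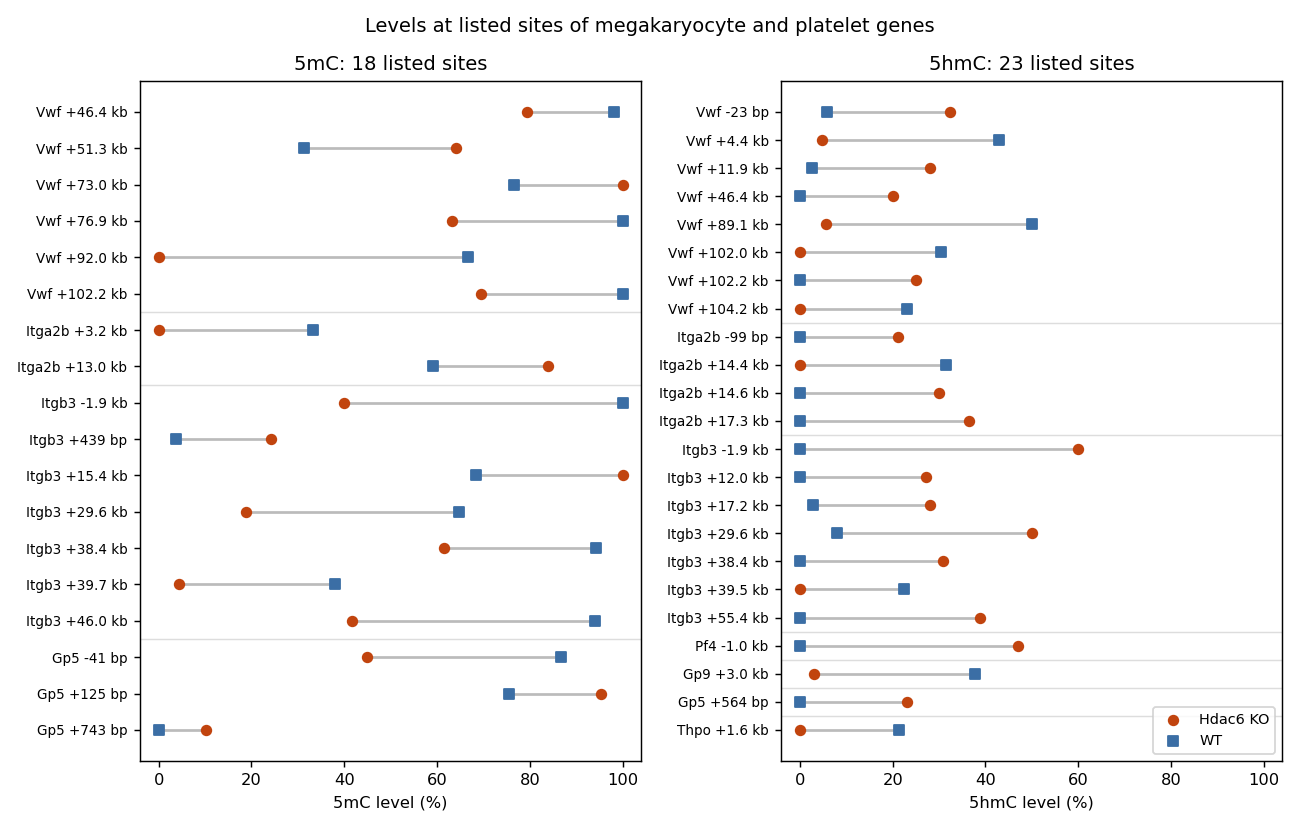
Levels of 5mC (left) and 5hmC (right), in percent, at every listed site of the 9 genes, with Hdac6 KO as circles and WT as squares, 1 library each. Rows give the gene and the distance from its lower-coordinate end. Gp1ba and Gp6 have no row, and the 5hmC levels of WT sit at 0% at 11 of 23 sites.

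Vwf, which encodes von Willebrand factor, the adhesive protein of platelet granules and endothelium, held 6 5mC and 8 5hmC sites. It is the longest of the 9 genes, with 133.7 kb on chromosome 6 from 125552948 to 125686679 (GRCm38, as all positions here). The 5mC difference was largest at position 125644900, inside the gene, with 0% in the knockout and 66.7% in wild type (p = 0.00824 in the authors' deposited table). Lower levels in the knockout were also found at 125599356 (79.5% against 98.0% in wild type), at 125629889 (63.2% against 100%) and at 125655174 (69.4% against 100%). The other 2 5mC sites went the other way, 125604272 with 64.1% in the knockout and 31.3% in wild type and 125625993 with 100% and 76.7%. Vwf thus had 4 lower and 2 higher 5mC sites, all inside the gene and none within 31 kb of its ends.

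The 8 5hmC sites of Vwf were evenly divided, 4 higher and 4 lower. Position 125552925 lies 23 bp outside the lower-coordinate end of the gene and had 32.3% 5hmC in the knockout and 5.88% in wild type. Next to it inside the gene, 125557348 had 4.76% in the knockout and 42.9% in wild type, and 125564838 had 28.1% and 2.63%. The sites near that end therefore did not share a direction. Farther in, 125599356 had 20% in the knockout and 0% in wild type, and 125642058 had 5.56% and 50%, the largest 5hmC difference of this gene. The last 3 sites, 125654938, 125655174 and 125657180, had 0%, 25% and 0% in the knockout, against 30.4%, 0% and 23.1% in wild type. Adjacent sites of this cluster alternate in direction.

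Thpo encodes thrombopoietin, the main hormone of platelet production, and is expressed mainly in liver. The gene spans 10.1 kb of chromosome 16 (20724454 to 20734511). It held no listed 5mC site and 1 5hmC site, at 20726009 inside the gene, with 0% in the knockout and 21.4% in wild type (p = 0.00263 in the authors' deposited table).

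Pf4 encodes platelet factor 4, a chemokine of the alpha granule, in a gene of 0.9 kb on chromosome 5 (90772435 to 90773383). Its only listed site was a 5hmC position, 90771423, with 47.1% in the knockout and 0% in wild type (p = 0.000497, q = 0.844 in the authors' deposited table). This cytosine lies 1012 bp upstream of the annotated start of Pf4. It also lies within 2 kb of the neighbouring chemokine gene Ppbp, so it cannot be given to Pf4 alone. No 5mC site was listed within 10 kb.

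Itga2b encodes integrin alpha-IIb, the alpha chain of the fibrinogen receptor, on the minus strand of chromosome 11 (102453297 to 102469883). Its 5mC sites were divided, with 0% in the knockout and 33.3% in wild type at 102456470, and 84.0% and 59.2% at 102466251. Of its 4 5hmC sites 3 were higher in the knockout, and each of these was at 0% in wild type. The one upstream of the gene, 102470569, lies 686 bp before the annotated start and had 36.4% in the knockout (p = 0.00918 in the authors' deposited table). Position 102467891, 1992 bp inside the gene, had 30.0% in the knockout, and 102453198, 99 bp past the gene's other end, had 21.2%. The lower site, 102467678, had 0% in the knockout and 31.6% in wild type, only 213 bp from a higher one.

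The promoter windows of Itga2b and Pf4 are shown because a 5hmC site higher in the knockout lies upstream of each start. The windows run from 250 bases before to 50 bases after the start, 5′ to 3′ on the gene's strand, from RefSeq GRCm38.p6, with every CpG in capitals. They are chr11:102469834-102470133 (minus strand) and chr5:90772185-90772484 (plus strand).
Itga2b: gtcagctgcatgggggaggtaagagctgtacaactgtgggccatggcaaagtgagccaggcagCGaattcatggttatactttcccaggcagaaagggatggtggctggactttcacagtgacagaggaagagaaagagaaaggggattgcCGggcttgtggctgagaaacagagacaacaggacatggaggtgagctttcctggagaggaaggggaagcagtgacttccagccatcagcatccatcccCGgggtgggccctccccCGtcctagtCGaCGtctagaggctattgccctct
Pf4: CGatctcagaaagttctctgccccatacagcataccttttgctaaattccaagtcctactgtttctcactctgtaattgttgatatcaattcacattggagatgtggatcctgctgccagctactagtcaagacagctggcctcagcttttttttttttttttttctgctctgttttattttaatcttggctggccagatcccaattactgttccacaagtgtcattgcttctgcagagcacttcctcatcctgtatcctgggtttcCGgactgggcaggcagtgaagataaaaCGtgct
None of the 6 CpGs of the Itga2b window and none of the 3 of the Pf4 window was listed in either table. The letters AGGAAG, the core of many ETS factor sites, occurred 2 times on the shown strand of the Itga2b window and 1 time on the other strand of the Pf4 window. The letters AGATAA, a form of the GATA factor motif, occurred in the Pf4 window and not in that of Itga2b. Searched on both strands, 6 of the 8 windows of the platelet genes held AGGAAG and 3 held AGATAA, beside 35.4% and 11.2% of all 32851 windows.

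Itgb3 encodes integrin beta-3, the partner of alpha-IIb, over 62.5 kb of chromosome 11 (104608000 to 104670476). It held 7 5mC sites, 5 of them lower in the knockout, and 7 5hmC sites, 6 of them higher. The site with the smallest p of all 5mC sites of the 9 genes, 104606111, lies 1889 bp outside the lower-coordinate end. It had 40.0% 5mC in the knockout and 100% in wild type (p = 0.000285, q = 1 in the authors' deposited table), and 60.0% 5hmC in the knockout against 0% in wild type (p = 0.000557, q = 0.882 in the authors' deposited table). That 5hmC difference was the largest of the 23.

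Inside Itgb3, 5mC was 18.8% in the knockout and 64.7% in wild type at 104637554, 61.5% and 94.3% at 104646416, and 41.7% and 94.1% at 104653953. At 104647652 the levels were 4.35% in the knockout and 37.9% in wild type, each lower than at those 3 sites. Higher 5mC was listed at 104623431, with 100% in the knockout and 68.4% in wild type, and at 104608439, with 24.1% and 3.77%. Position 104608439 lies 439 bp inside the gene and was the only 5mC site of Itgb3 under 30% in wild type. Of the 5hmC sites inside the gene, 104663386 had 38.9% in the knockout and 0% in wild type, 104646416 had 30.8% and 0%, and 104619976 had 27.3% and 0%. Levels at 104637554 were 50% in the knockout and 8.0% in wild type, and at 104625182 they were 28% and 2.78%. One site, 104647532, was lower, with 0% in the knockout and 22.5% in wild type. Together, the integrin genes Itga2b and Itgb3 held 9 of 11 5hmC sites higher in the knockout and 6 of 9 5mC sites lower, beside 64.4% higher and 59.7% lower over all listed sites. The 2 tallies are not separate, as positions 104606111, 104637554 and 104646416 of Itgb3 count in both.

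**Figure D2:**
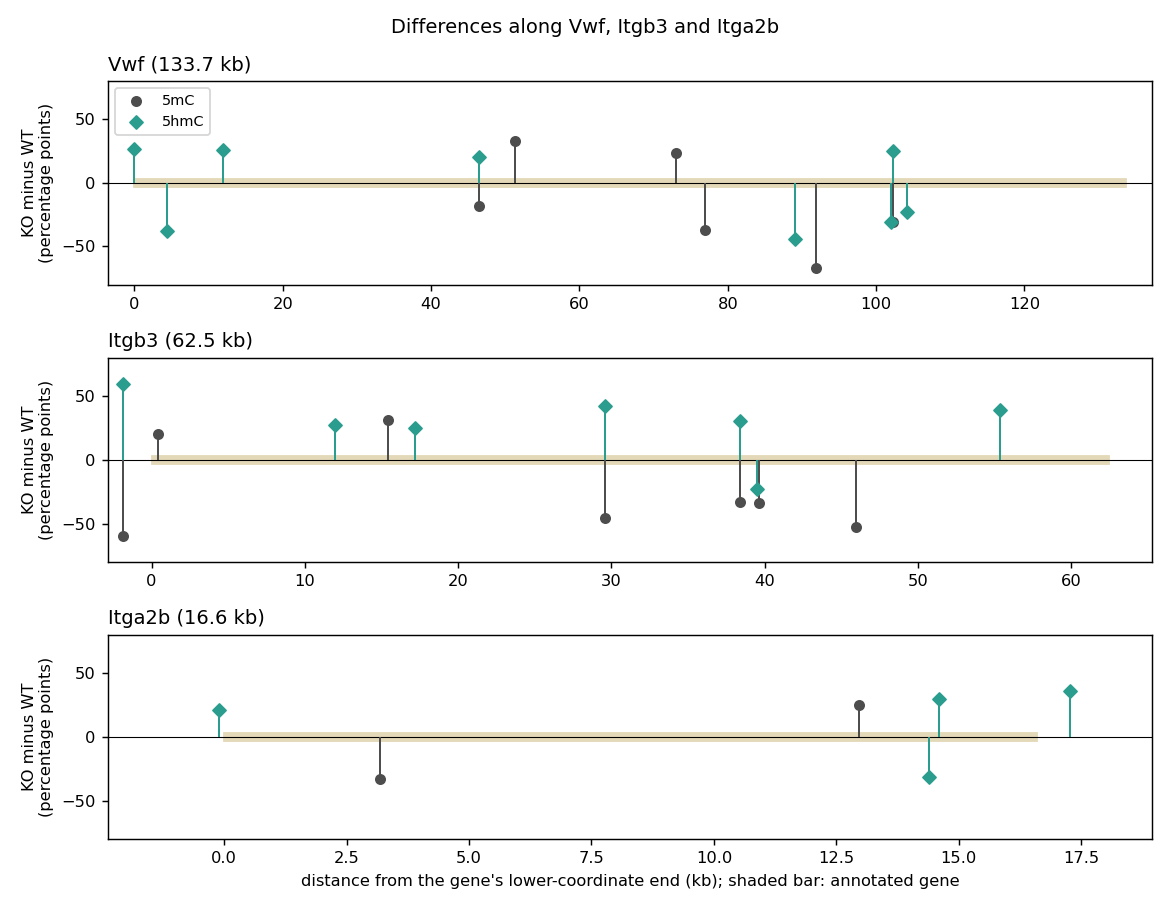
Difference in level, knockout minus wild type in percentage points, against the distance in kb from the lower-coordinate end of Vwf, Itgb3 and Itga2b, for 5mC (circles) and 5hmC (diamonds), with the annotated gene as a shaded bar. In Itgb3 6 of 7 5hmC sites lie above 0, whereas those of Vwf are divided 4 to 4.

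The 4 genes of GPIb-IX-V subunits and of the collagen receptor, 62.6 kb with their flanks, held 3 5mC sites, 2 of them higher in the knockout, and 2 5hmC sites, 1 of them higher. Per 100 kb these are 4.79 5mC and 3.19 5hmC sites, beside 2.42 and 3.72 over all genes. Gp5, whose product is glycoprotein V, had 3 5mC sites around the lower-coordinate end of its gene of 3.1 kb on chromosome 16 (30307685 to 30310781). Position 30307644, 41 bp outside, had 45.0% 5mC in the knockout and 86.7% in wild type, whereas 30307810, 166 bp away and inside, had 95.4% and 75.5%. At 30308428 the levels were 10.1% in the knockout and 0% in wild type. The gene lies on the minus strand, so these positions are 2353 to 3137 bp downstream of its annotated start. Its 5hmC site, 30308249, had 23.1% in the knockout and 0% in wild type.

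Gp9, which encodes glycoprotein IX on chromosome 6 (87776131 to 87779786), had no listed 5mC site. Its single 5hmC site, 87779164, lies 1094 bp downstream of the annotated start and had 3.12% in the knockout and 37.8% in wild type. The p there was the smallest of the 23 5hmC sites (p = 0.000393, q = 0.762 in the authors' deposited table). Gp1ba, the gene of the chain that binds von Willebrand factor (chromosome 11, 70639102 to 70643986), and Gp6, the gene of the collagen receptor glycoprotein VI (chromosome 7, 4362853 to 4397851), held no listed site of either mark. The nearest position to Gp1ba in each table was 70649317, 5331 bp past the gene, with 42.9% 5mC in the knockout and 86.4% in wild type, and with 35.7% and 0% 5hmC. For Gp6 it was 4418057, 20206 bp away, with 58.6% 5mC in the knockout and 21.4% in wild type, and 0% and 25% 5hmC.

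Listed sites were thus found for 5mC in 4 of the 9 genes and for 5hmC in 7. Over all 34614 genes the shares holding a site were 42.3% for 5mC and 49.6% for 5hmC. The site nearest to the 2 kb limit on its inner side was that at 1889 bp from Itgb3, and the first on its outer side was a 5hmC site 3116 bp from Vwf (125689795, 17.7% in the knockout and 0% in wild type). The shares of all genes grow with gene length. Of genes under 5 kb, the class of Pf4, Gp9, Gp5 and Gp1ba, 19.9% held a 5mC and 28.7% a 5hmC site. For genes of 5 to 20 kb, as Itga2b and Thpo, the shares were 36.6% and 46.0%, and for genes of 20 to 50 kb, as Gp6, 51.6% and 58.3%. Genes over 50 kb, as Vwf and Itgb3, held sites in 78.3% and 79.8% of cases. Per 100 kb of gene and flanks, the 9 genes held 5.87 5mC sites and 7.51 5hmC sites, beside 2.42 and 3.72 over all genes. Whether CpG density or coverage accounts for the denser listing was not tested.

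Position within or outside the gene was compared with direction. All 5 5hmC sites in the flanks, at Vwf, Itga2b (2), Itgb3 and Pf4, were higher in the knockout, and of the 18 inside genes 10 were higher (55.6%). Over all genes 61.5% of 7554 5hmC flank sites and 61.6% of those inside genes were higher. Both 5mC sites in the flanks, at Itgb3 and Gp5, were lower, and of the 16 inside genes 9 were lower (56.2%). Over all genes 53.2% of 4630 5mC flank sites and 57.7% of those inside genes were lower. With 5 and 2 flank sites these counts are small. The knockout was at exactly 0% 5hmC at 5 of the 8 lower sites (62.5%, beside 84.2% of all lower 5hmC sites), and wild type at 11 of the 15 higher ones (73.3%, beside 81.3%).

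In all, 5 positions were listed in both tables, 2 in Vwf and 3 in Itgb3, which is 27.8% of the 5mC and 21.7% of the 5hmC sites of these genes. Over the whole tables, 12608 shared positions made 23.7% and 17.5%. At each of the 5, 5mC was lower and 5hmC higher in the knockout. At the position upstream of Itgb3 the sum of both levels was 100% in the knockout and 100% in wild type, while its 5hmC part was 60.0% and 0%. At the other Itgb3 positions the sums were 68.8% in the knockout and 72.7% in wild type (104637554), and 92.3% and 94.3% (104646416). In Vwf they were 99.5% in the knockout and 98.0% in wild type (125599356), and 94.4% and 100% (125655174). The sums therefore differed by at most 5.56 points, less than either mark.

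Opposite directions are the rule at shared positions. Of all 12608, 12594 were opposite (99.9%), and in 9015 (71.5%) 5mC was lower and 5hmC higher. The sum of both levels moved by 10 points or less at 84.1% of them. The sum exceeded 100% at 750 positions in the knockout and at 350 in wild type, none of them among the 5. The sample titles give the 5mC and the 5hmC library of each genotype different numbers. The sources used here do not say which libraries entered each level. If a 5hmC level was taken as the bisulfite reading minus the 5mC level, a lower 5mC level by itself gives a higher 5hmC level. Opposite directions and similar sums would then follow from the calculation and be no separate observation. Whether this holds here was not tested. Whether both levels at a position rest on the same reads was not tested.

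**Figure D3:**
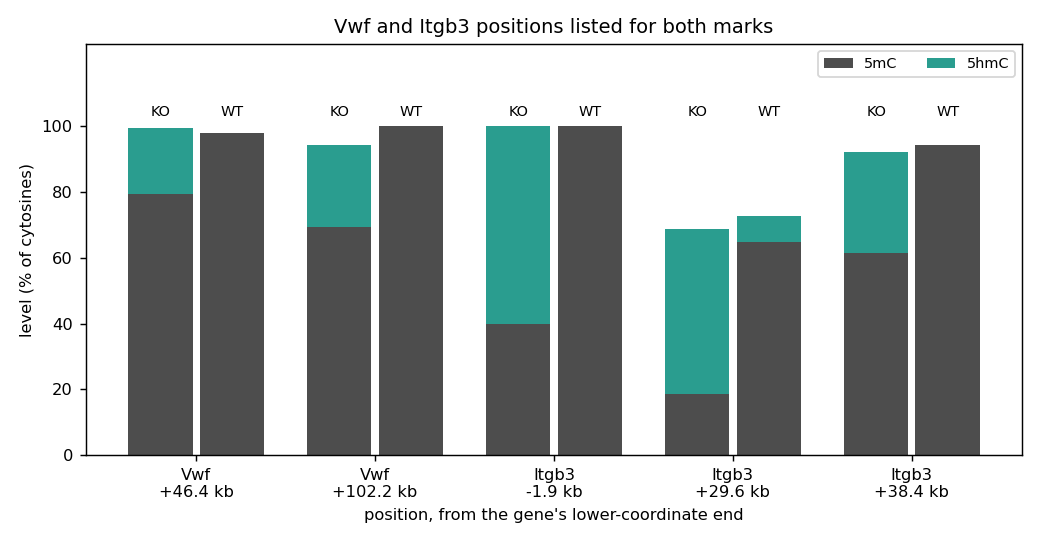
Levels of 5mC and 5hmC, stacked, in percent of cytosines, at the 5 positions of Vwf and Itgb3 listed for both marks. The left bar is the knockout (KO) and the right bar wild type (WT). Each stack joins levels of differently numbered libraries of that genotype. The stacks of KO and WT reach similar heights, from 68.8% to 100%, while the 5hmC part is larger in KO at each position.

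Within each mark, the few closest neighbouring sites of these genes had opposite directions. Among the sites of 1 mark that lie within 250 bp of each other, the 9 genes held 3 pairs, in Gp5 (5mC), Vwf (5hmC) and Itga2b (5hmC), and in each pair one partner was higher and the other lower. In the tables as a whole, 88.7% of 2689 such 5mC pairs and 78.1% of 7256 such 5hmC pairs had a common direction. The 3 pairs are too few to set a share beside these.

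Promoter windows were found in the RefSeq table for 7 of the 9 genes, 8 windows in all, and Vwf and Itgb3 had none. The 8 windows are poor in CpG, with a median of 3, beside a median of 7 over all windows. Their counts range from 0 in Gp5 to 13 in one window of Thpo. None of their 34 CpGs was listed for either mark. Of 361339 CpGs in all windows, 0.114% were listed for 5mC and 0.215% for 5hmC. No listed CpG among 34 thus does not set the promoters of these 7 genes apart. The promoters of Vwf and Itgb3 were not covered. A listed 5hmC site lies 23 bp outside the lower-coordinate end of Vwf, and a listed 5mC site 439 bp inside that of Itgb3.

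The wider platelet programme was described with 6 lists of 105 genes. They held 198 5mC sites in 67 genes, 92 higher and 106 lower in the knockout, and 349 5hmC sites in 78 genes, 207 higher and 142 lower. Higher sites made 46.5% for 5mC and 59.3% for 5hmC, beside 40.3% and 64.4% of all listed sites. Of the sites assigned to all genes, 42.9% and 61.5% were higher. The genes holding a site made 63.8% for 5mC and 74.3% for 5hmC, beside 42.3% and 49.6% of all genes. The median length of the 105 genes was 31.4 kb, beside 12.8 kb over all genes, and the shares grow with length as given above. Platelet surface receptors had 5mC sites in 11 of 20 genes (8 higher, 12 lower) and 5hmC sites in 13 (18 higher, 13 lower). Granule and coagulation genes were the list with more higher than lower 5mC sites, 13 against 8 in 8 of 15 genes, but Nbeal2 alone held 7 higher and no lower 5mC sites. Without Nbeal2 the list had 6 higher and 8 lower 5mC sites (42.9% higher, as over all genes). For 5hmC the granule and coagulation genes had 15 higher and 12 lower sites in 11 genes. Thrombopoietin signalling genes had 11 higher and 13 lower 5mC sites, and 25 higher and 19 lower 5hmC sites, each in 11 of 15 genes. Proplatelet cytoskeleton genes had 13 higher and 14 lower 5mC sites in 7 of 16 genes, and 30 higher and 18 lower 5hmC sites in 11. Platelet signalling genes had 16 higher and 23 lower 5mC sites in 16 of 21 genes, and 48 higher and 28 lower 5hmC sites in 19.

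Megakaryocyte transcription factors were the most densely listed of these lists, with 4.88 5mC and 8.97 5hmC sites per 100 kb. They held 31 higher and 36 lower 5mC sites in 14 of 18 genes, and 71 higher and 52 lower 5hmC sites in 13. Etv6, an ETS-family repressor needed in megakaryocytes, held 28 of the 67 5mC and 42 of the 123 5hmC sites. Without it the densities were 3.44 and 7.15 sites per 100 kb. Etv6 also had the only site of the 6 lists with a q under 0.05, at chromosome 6 position 134059768, with 30.8% 5hmC in the knockout and 0% in wild type (p = 2.81e-06, q = 0.0246 in the authors' deposited table). Other sites of Etv6 had 100% 5hmC in the knockout and 0% in wild type (134266824), and 0% and 55.6% (134208593).

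Among the genes with the largest 5mC gains was Stat5b, a signal transducer of the thrombopoietin pathway, with 100% 5mC in the knockout and 15.4% in wild type at chromosome 11 position 100848246. Mrtfa, a coactivator of serum response factor, had 85.7% in the knockout and 0% in wild type, and Gnaq, a G-protein subunit used by platelet agonist receptors, had 80% and 0%. The largest 5mC losses were at Gata1, the erythroid and megakaryocytic factor, and at Hdac6 itself, each with 0% in the knockout and 100% in wild type. Both genes lie close together on chromosome X, and all 5 of their listed sites, 3 for 5mC and 2 for 5hmC, were lower. Runx1 had 16.7% 5mC in the knockout and 100% in wild type, and Cd9, a tetraspanin of platelets, had 20% and 100%. These are single sites and do not give the direction of a gene. Over all listed 5mC sites, Gnaq and Runx1 each had 3 higher and 3 lower. Stat5b had 3 higher and 1 lower, Mrtfa 2 and 1, and Cd9 0 and 3. The p-values in the authors' deposited table ran from 1.08e-05 (Gata1) to 0.00699 (Gnaq). The q there was 0.245 at Gata1 and larger at the other 5mC sites named here, so none was under 0.05.

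For 5hmC the largest gains beside Etv6 were at Myh9, the non-muscle myosin of proplatelet formation, Nbeal2, the alpha-granule gene of grey platelet syndrome, and Serpine2, a protease inhibitor. Each had a site with 80% 5hmC in the knockout and 0% in wild type. Over all listed 5hmC sites, Myh9 had 7 higher and 4 lower, Nbeal2 5 and 6, and Serpine2 4 and 0. The largest losses beside Etv6 were at Stim1, a calcium sensor, with 0% in the knockout and 75.0% in wild type, at Myb, with 0% and 71.4%, and at Hdac6, with 0% and 63.2%. Over all listed 5hmC sites, Stim1 had 0 higher and 2 lower, Myb 1 and 4, and Hdac6 0 and 2. The q at Hdac6 was 0.0642 and the q at Stim1 was 0.746 in the authors' deposited table. At Myh9, Nbeal2, Serpine2 and Myb the q was larger still.

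The windows of Alox12 and Mrtfa are shown because they hold the only promoter-window cytosines listed in these 105 genes. Alox12 encodes the platelet 12-lipoxygenase. Its listed CpG, chromosome 11 position 70255346, lies 24 bp downstream of the annotated start and had 25% 5hmC in the knockout and 0% in wild type (p = 0.000782, q = 1 in the authors' deposited table). In one of the 2 windows of Mrtfa, position 81105280 of chromosome 15 lies at -233 bp from that start, that is upstream of it, and had 5.0% 5hmC in the knockout and 47.8% in wild type (p = 0.00211, q = 1 in the authors' deposited table). The sequences are chr11:70255321-70255620 and chr15:81104998-81105297, both minus strand, RefSeq GRCm38.p6, 5′ to 3′, with the listed CpG alone in capitals.
Alox12: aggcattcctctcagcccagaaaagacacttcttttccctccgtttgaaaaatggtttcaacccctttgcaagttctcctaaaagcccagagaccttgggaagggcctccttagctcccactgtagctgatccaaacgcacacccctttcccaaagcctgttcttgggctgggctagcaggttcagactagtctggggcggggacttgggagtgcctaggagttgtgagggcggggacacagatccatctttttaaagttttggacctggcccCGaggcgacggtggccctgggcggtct
Mrtfa: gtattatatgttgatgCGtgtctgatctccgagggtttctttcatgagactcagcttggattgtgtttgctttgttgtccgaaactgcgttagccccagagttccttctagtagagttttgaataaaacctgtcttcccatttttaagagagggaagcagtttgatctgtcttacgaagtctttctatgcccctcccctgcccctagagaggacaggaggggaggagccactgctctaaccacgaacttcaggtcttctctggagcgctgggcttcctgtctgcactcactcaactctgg
The Alox12 window holds 8 CpGs and this window of Mrtfa 7, and 1 of each was listed.

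The red cell membrane skeleton, a gene group of the sister lineage, was set beside the platelet genes. Of the sites of the 9 platelet genes 38.9% (5mC) and 65.2% (5hmC) were higher in the knockout, and in the 15 red cell genes 39.5% of 38 5mC sites and 65.7% of 70 5hmC sites were. Per 100 kb the platelet genes held 5.87 5mC and 7.51 5hmC sites, and the red cell genes 3.61 and 6.65. No test of these differences was possible with 1 library per group.

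**Figure D4:**
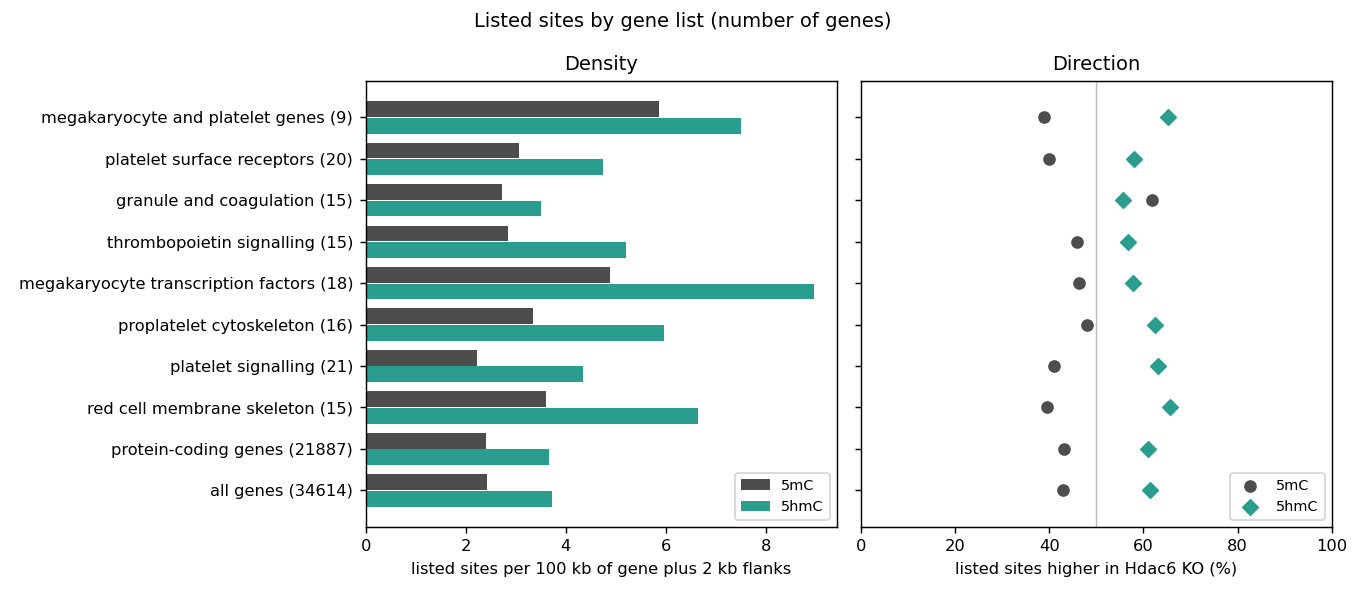
Listed sites per 100 kb of gene plus 2 kb flanks (left, bars) and the percentage of listed sites higher in Hdac6 KO (right), for the 9 genes, the 6 wider platelet lists, the red cell list, protein-coding genes and all genes, with the number of genes in brackets. The 9 genes have the highest 5mC density shown, 5.87, but 4.58 without Itgb3, below the 4.88 of the transcription factors. The transcription factors have the highest 5hmC density, 8.97, but 7.15 without Etv6. Directions stay near those of all genes except for granule and coagulation 5mC (61.9% higher, but 42.9% without Nbeal2).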

How the data were processed

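The deposited workbook holds 2 tables, whose levels are a fraction per cytosine computed by the authors. Per the file headers, they also give a p-value, a q-value and a difference (held as a score from -1 to 1, knockout minus wild type). Differences were recomputed from the levels. Aligner, caller, test and depth are not stated, so the precision of a level is unknown. The submitters' processing notes name GRCm39, but all 408 listed 5mC and 768 listed 5hmC sites inside RefSeq GRCm38.p6 promoter windows fall on the C of a CpG, and none at a shift of 1 bp. GRCm38 was therefore used.

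RefSeq genes received the sites (protein-coding and long non-coding, autosomes, X and Y) within a flank of 2000 bp. The numbers of tests, 16859670 for 5mC and 16223319 for 5hmC, were recovered from deposited p and q, as a Benjamini-Hochberg q is p times tests over rank. Both steps were tested on simulated data. Python 3.11.15, pandas 2.3.3, numpy 2.4.6 and matplotlib 3.10.9 were used. With 1 library per group no test was made. All sites of the 9 genes were named. For the wider lists the rule named 4 genes by size of difference in each direction and mark, and any gene with q under 0.05; 1 gene so named is not reported here. Alox12 and the promoter site of Mrtfa were named after their values were seen. All 105 list genes were matched, Mkl1 under the symbol Mrtfa. The members and lists were chosen with earlier results of these data known.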

Additional observations from a re-analysis of the deposited data

How the results depend on the processing

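The counts rest on sites with modest p-values. With p under 0.001, 2 5mC and 4 5hmC sites of the 9 genes remained, in 2 and 3 genes (7.72% and 16.2% of all genes). Without levels of exactly 0 or 100%, 10 5mC and 7 5hmC sites were left. A flank of 10 kb gave 36 5hmC sites, 69.4% higher, and 15 5hmC sites were left without Vwf, 73.3% higher. Of all listed 5hmC sites 64.4% were higher, and of those assigned to all genes with the 2 kb flank 61.5%. A minimum difference of 25 points left 12 5mC sites, of which 16.7% were higher in place of 38.9%. All other alternatives kept the counts within 1.5 times, among them those for genes only, a 5 kb flank and sites in other genes. Without Itgb3, chosen after seeing the data, the densities were 4.58 5mC and 6.67 5hmC sites per 100 kb. Without Nbeal2, also chosen after seeing the data, 42.9% of the granule and coagulation 5mC sites were higher in the knockout in place of 61.9%, so the majority turned. No paired analysis was possible because the groups compared share fewer than 2 replicate numbers, with 1 library each. Leaving out a replicate was not possible for the same reason. Unknown depth limits every single level, above all those of 0 and 100%.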
